A study of Mus musculus with 12 samples.

Results

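The 10 genes described here act on collagen after its chains are made. They encode the lysyl oxidases *Lox*, *Loxl1*, *Loxl2*, *Loxl3* and *Loxl4*, the lysyl hydroxylases *Plod1* and *Plod2*, the catalytic alpha subunits of prolyl 4-hydroxylase *P4ha1* and *P4ha3*, and the collagen chaperone HSP47 (*Serpinh1*). They were chosen by gene symbol from 53801 genes in the deposited tables, and 10 of 10 passed the filter on low counts that left 15306 genes for testing. RNA was sequenced from whole hearts of adult male C57BL/6N mice after acute myocardial infarction (AMI), which was produced by tying off the left anterior descending coronary artery. The 3 groups held 4 hearts each, taken after sham surgery, 1 day after AMI (day 1 AMI) or 7 days after AMI (day 7 AMI). The paper names no gene knockout and no drug for these 3 groups, which are taken here as wild type and untreated. The labels do not give the day on which sham hearts were taken, so sham is a single reference for both days. A whole-heart library mixes infarct, border and remote myocardium, and in such bulk RNA more cells of a type and more RNA per cell cannot be told apart. Each library was a separate mouse, so the spread between libraries holds biological and technical variation together.

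Fibrillar collagen is modified inside the cell and again outside it. In the endoplasmic reticulum, prolyl 4-hydroxylases hydroxylate prolines, which stabilises the triple helix, lysyl hydroxylases hydroxylate lysines, which sets the kind of cross-link that can form, and HSP47 binds the folded procollagen. After secretion and removal of the propeptides, lysyl oxidases oxidise lysine and hydroxylysine side chains, and the resulting aldehydes cross-link collagen and elastin fibres. After infarction this machinery is known for its place in scar formation, where cross-linked collagen replaces lost muscle.

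All members were protein-coding genes of GRCm38. The lysyl oxidases lay on 5 separate chromosomes, with *Loxl1* at chr9:58287738-58313186, *Loxl2* at chr14:69609068-69695834, *Loxl3* at chr6:83034173-83052562 and *Loxl4* at chr19:42593982-42612813. *Plod1* lay at chr4:147909753-147936767, *Plod2* at chr9:92542223-92608428 and *P4ha1* at chr10:59323296-59373304. *Serpinh1* at chr7:99345376-99353239 and *P4ha3* at chr7:100285520-100319699 were the only neighbours, 0.932 Mb apart. *Loxl3* shared 11.6% of its exon bases with *Htra2* on the other strand, and the strand counted is not given in the sources used here. *Htra2* held 429 to 663 counts in sham, 799 to 1097 on day 1 and 555 to 770 on day 7. Of the 75-base stretches of *Loxl2* transcripts, 43.6% also occurred in transcripts of other genes, so counts of *Loxl2* depend on how reads with several matches were assigned. Which genes hold these stretches was not recorded. *Gm21451*, looked up as a possible holder, had 0 counts in every library.

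Promoters of 4 members are shown because *Serpinh1*, *P4ha1* and *Loxl4* were up on day 1 and had no called further rise by day 7, whereas *P4ha3* was barely counted in sham and rose between day 1 and day 7. They are the 250 bases before the annotated start in RefSeq (GRCm38.p6), written 5′ to 3′ on the gene's strand. Promoters of 5 of 10 members were searched, and those of the other members were not. The regions are chr7:99353240-99353489 (minus strand) for *Serpinh1*, chr10:59323046-59323295 (plus) for *P4ha1*, chr19:42612807-42613056 (minus) for *Loxl4* and chr7:100285270-100285519 (plus) for *P4ha3*. Capitals mark the hypoxia-response core, ACGTG or GCGTG on either strand.
Serpinh1: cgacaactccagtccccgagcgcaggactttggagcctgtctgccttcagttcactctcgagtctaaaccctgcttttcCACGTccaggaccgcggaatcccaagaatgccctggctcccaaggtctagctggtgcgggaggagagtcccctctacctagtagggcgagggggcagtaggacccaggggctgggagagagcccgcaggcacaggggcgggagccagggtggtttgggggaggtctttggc
P4ha1: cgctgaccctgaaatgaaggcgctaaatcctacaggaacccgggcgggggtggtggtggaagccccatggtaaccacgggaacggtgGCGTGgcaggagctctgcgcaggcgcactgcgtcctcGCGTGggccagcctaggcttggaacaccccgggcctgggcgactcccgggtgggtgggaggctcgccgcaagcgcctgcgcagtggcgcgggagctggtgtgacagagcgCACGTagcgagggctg
Loxl4: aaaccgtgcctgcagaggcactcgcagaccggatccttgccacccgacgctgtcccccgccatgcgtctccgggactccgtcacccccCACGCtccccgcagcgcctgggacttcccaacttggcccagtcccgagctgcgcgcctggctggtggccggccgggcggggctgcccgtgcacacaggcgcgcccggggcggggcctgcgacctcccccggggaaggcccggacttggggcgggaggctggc
P4ha3: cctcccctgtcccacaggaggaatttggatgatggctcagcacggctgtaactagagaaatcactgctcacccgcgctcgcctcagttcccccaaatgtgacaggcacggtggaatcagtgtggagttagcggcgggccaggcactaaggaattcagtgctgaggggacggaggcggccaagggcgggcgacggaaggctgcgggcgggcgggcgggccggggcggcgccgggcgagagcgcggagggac
The core was found 3 times in the *P4ha1* promoter at -163, -126 and -16, counted in bases from the start to the first base of the match. It was found 1 time each in *Serpinh1* (-171) and *Loxl4* (-162), 1 time in *Plod1* (-20, sequence not shown), and 0 times in *P4ha3*. Among 32851 mouse promoters of this length, 38.6% held it, and its letters also lie in the E-box CACGTG. The GC box GGGCGG, found in 32.7% of promoters, was in 5 of 5 members searched and occurred 5 times in *P4ha3*. The SMAD box CAGAC, found in 42.2% of promoters, was in *Loxl4*, *Plod1* and *Serpinh1*, and the AP-1 site TGANTCA, found in 6.75%, was in 0 of 5. These matches describe letters in a window and do not show binding.

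Libraries held 23204551 to 32166517 counts, with a median of 25338048. The TMM factors, which correct for RNA composition, were 0.781 to 0.917 in sham, 1.01 to 1.06 on day 1 and 1.10 to 1.17 on day 7. Without them, on library sizes alone, the median log2 FC of all tested genes against sham moved from -0.01 to 0.26 on day 1. On day 7 it moved from 0.03 to 0.43. The count of higher DEGs among members on day 1 went from 5 to 7, with *Loxl1* and *Loxl2* added. That among all tested genes went from 1192 to 1764. CPM (read counts scaled to library size) given for single hearts are scaled by these factors. Genes were called DEGs where the fold change (FC) reached 2 and the FDR, the Benjamini-Hochberg adjusted p of edgeR's quasi-likelihood test over all tested genes, was below 0.05. A gene is said to have risen or fallen where its FDR was below 0.05, with or without that FC.

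Against sham, 5 of 10 members were DEGs and higher on day 1 AMI, and 0 were lower, where 7.79% of all tested genes were higher DEGs and 2.98% were lower ones. With no FC minimum, 8 of 10 rose and 0 fell, against 22.0% and 19.9% of all genes. Both day 1 counts, and each count of higher or risen members on day 7 in this paragraph, include *P4ha3*. It passed the filter on low counts only with day 7 hearts in the fit, the group where it was highest. With only sham and day 1 hearts fitted, *P4ha3* was not tested and 4 members were higher DEGs. On day 7 AMI, 8 of 10 members were higher DEGs, against 15.3% of all genes, and 0 were lower, against 5.88%. All 10 members had risen on day 7 by FDR alone, against 30.9% of all genes, and none fell, against 28.4%. Between day 1 and day 7, 6 of 10 were higher DEGs on day 7 against 8.55% of all genes, and 7 rose against 24.2%, while 0 fell against 22.8% (2.69% as DEGs). The median log2 FC of the members was 1.11 on day 1, 2.03 on day 7 and 1.16 from day 1 to day 7, where the medians of all genes were -0.01, 0.03 and 0.02.

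**Figure D1:**
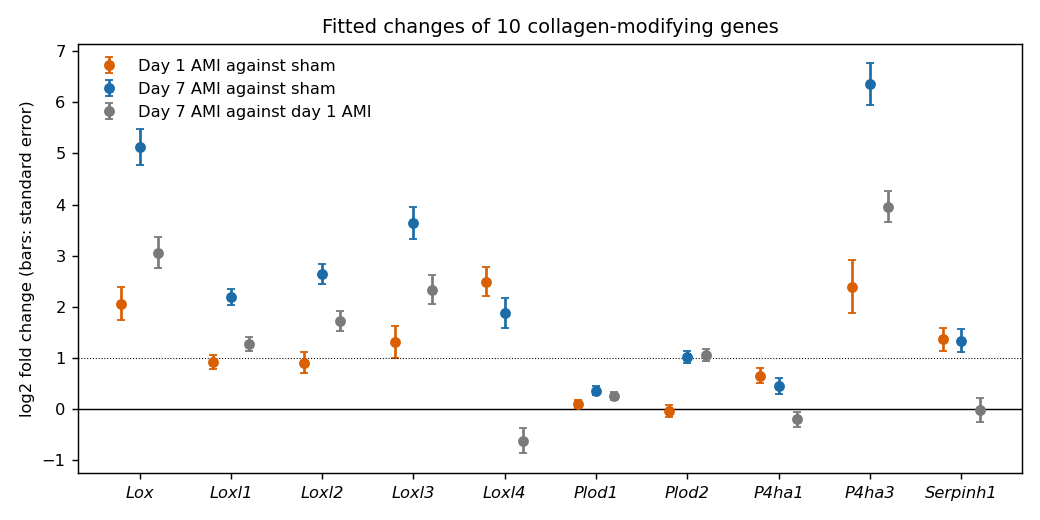
Log2 fold change (vertical axis, bars are standard errors) of the 10 members for day 1 AMI against sham, day 7 AMI against sham and day 7 AMI against day 1 AMI, from edgeR on 4 hearts per group. The dotted line marks a log2 FC of 1. *P4ha3* (6.35) and *Lox* (5.12) stand highest for day 7 against sham in this fit, and the day 1 values of *Loxl4* (2.49), *P4ha3* (2.39) and *Lox* (2.06) have overlapping error bars.

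The chaperone HSP47, encoded by *Serpinh1*, was the most abundant member, and its level on day 1 AMI was already as high as on day 7 on average. CPM were 225, 260, 284 and 194 in the sham hearts, 635, 596, 648 and 596 on day 1, and 1037, 476, 417 and 504 on day 7. Every AMI heart exceeded every sham heart, and the first day 7 heart stood well above the other 3. The log2 FC against sham was 1.36 ± 0.231 (SE, FDR 0.000454), a 2.57-fold rise, on day 1 and 1.34 ± 0.231 (FDR 0.000185) on day 7. The change from day 1 to day 7 was -0.02 ± 0.227 (FDR 0.941), its sign turned to 0.11 on library sizes alone, and the hearts of both days overlapped. Without day 7 replicate 1, *Serpinh1* fell by 0.41 from day 1 to day 7 (FDR 0.0144), and its rise against sham on day 7 was 0.95, below the FC of 2.

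Prolyl 4-hydroxylase is a tetramer of alpha subunits, which carry the active site, and the beta subunit *P4hb*, also known as protein disulfide isomerase. The alpha subunits differed widely in level and timing. *P4ha1* CPM were 62.7, 65.5, 53.8 and 42.0 in sham, 96.3, 91.7, 77.7 and 87.2 on day 1, and 99.2, 72.0, 62.2 and 73.2 on day 7. All day 1 hearts lay above all sham hearts, whereas the lowest day 7 heart lay within the sham range. *P4ha1* rose by 0.65 ± 0.15 on the log2 scale on day 1 (FDR 0.00335) and by 0.45 ± 0.15 on day 7 (FDR 0.0176), or 1.04 by limma on log2(TPM + 1). The day 7 call was lost without sham replicate 4 (0.33, FDR 0.0578) and without day 7 replicate 1 (0.30, FDR 0.0694). From day 1 to day 7 the value was -0.20 ± 0.148 (FDR 0.281), and it became -0.35 (FDR 0.0474) without day 7 replicate 1 and 0.02 on log2(TPM + 1).

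*P4ha3*, a minor alpha subunit gene, was barely counted in sham hearts. Its raw counts there were 1, 2, 2 and 3, against 8, 24, 17 and 14 on day 1 and 404, 181, 141 and 217 on day 7. In CPM this was 0.0522 to 0.143 in sham, 0.306 to 0.716 on day 1 and 5.20 to 12.5 on day 7, so the groups formed 3 separate ranges. From the summed counts of 8, 63 and 943, the ratio of normalised counts to sham was 5.50 (95% exact interval 2.63 to 13.3) on day 1 and 87.3 (44.1 to 203) on day 7, and day 7 exceeded day 1 by 15.9 (12.3 to 20.8). These intervals cover counting error only. The fitted log2 FCs, which depend on the prior count at this depth, were 2.39 ± 0.518 (FDR 0.00237), 6.35 ± 0.408 (FDR 4.5e-08) and 3.96 ± 0.304 (FDR 4.6e-07). The day 1 rise was not called by limma on log2(TPM + 1) (0.33, adjusted p = 0.168), where a pseudocount of 1 exceeds the gene's level, and the day 7 value there was 2.77.

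TPM, which is scaled per transcript length, allows the alpha subunits to be set beside each other. *P4ha3* made up 0.175% ± 0.0573 (SD, n = 4) of the TPM summed over *P4ha1*, *P4ha2* and *P4ha3* in sham, 0.478% ± 0.197 on day 1 and 7.15% on day 7, where hearts ran from 5.01% to 8.66%. *P4ha1* held 42.6% in sham, 55.1% on day 1 and 47.7% on day 7. *P4ha2*, the other common alpha subunit, was not called at either time, with log2 FCs of 0.09 (FDR 0.586) and 0.02 (FDR 0.915), but on library sizes alone it was (0.36, FDR 0.0414, and 0.41, FDR 0.0152). *P4ha3* thus held the smallest share of the 3 genes in each group.

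The lysyl hydroxylases were the only members not called on day 1 against sham. *Plod1*, which acts on lysines of the helix, had 118, 123, 142 and 125 CPM in sham, 137, 137, 137 and 135 on day 1, and 186, 149, 160 and 158 on day 7. Day 1 hearts fell within the sham range, and day 7 hearts were all above it. The log2 FC was 0.10 ± 0.0824 on day 1 (FDR 0.332) and 0.36 ± 0.0824 on day 7 (FDR 0.00171), and *Plod1* rose from day 1 to day 7 by 0.26 ± 0.0822 (FDR 0.0192). That last call was lost without day 7 replicate 1 (0.19, FDR 0.0624), and on library sizes alone the day 1 value was called (0.37, FDR 0.00653).

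*Plod2*, which acts on the telopeptides and so gives rise to the hydroxylysine cross-links known from fibrotic tissue, was called on day 7 but not on day 1. Its CPM were 35.8, 27.6, 38.7 and 34.3 in sham, 35.5, 35.4, 31.0 and 32.1 on day 1, and 77.4, 78.4, 58.1 and 63.1 on day 7. Sham and day 1 hearts overlapped, and each day 7 heart exceeded all of them. The log2 FC on day 1 was -0.03 ± 0.118 (FDR 0.885), and 0.25 on library sizes alone. *Plod2* rose by 1.02 ± 0.118 against sham on day 7 (FDR 5.4e-06) and by 1.05 ± 0.117 against day 1 (FDR 1.05e-05). These values lie at the FC of 2, and the day 7 rise against sham was 0.93 without sham replicate 2, 0.97 without day 7 replicate 1 and 0.96 without day 7 replicate 2. Of the TPM summed over *Plod1*, *Plod2* and *Plod3*, *Plod2* held 16.0% in sham, 12.9% on day 1 and 19.9% on day 7, and *Plod1* held 60.6%, 52.2% and 51.0%.

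**Figure D2:**
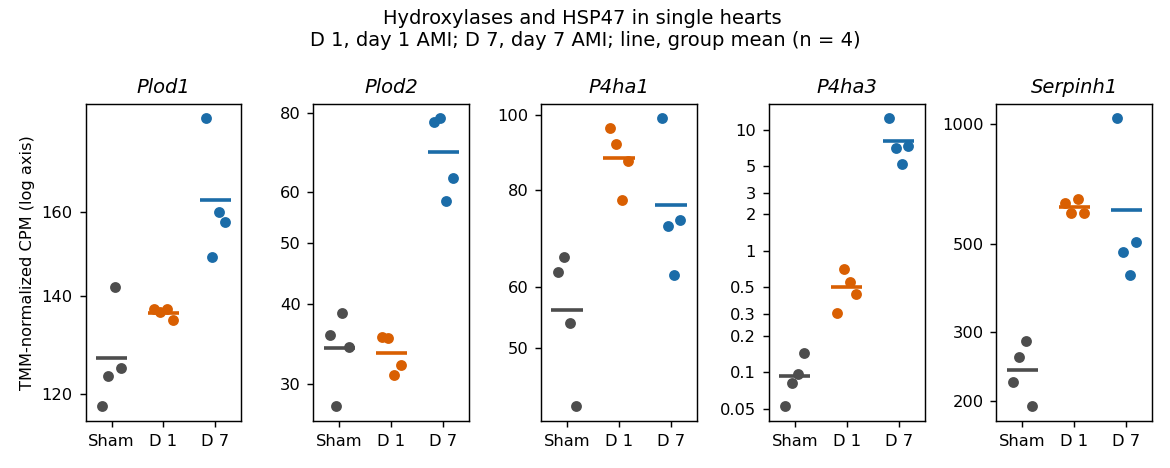
TMM-normalised CPM (log axis) of *Serpinh1*, *P4ha1*, *P4ha3*, *Plod1* and *Plod2* in each of the 12 hearts, by group, with group means as horizontal lines. *Plod2* separates day 7 hearts (58.1 to 78.4 CPM) from the other groups, and *P4ha3* forms 3 separate ranges.

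All 5 lysyl oxidases rose on both days against sham. *Lox*, the founding member (chr18:52516067-52529867), had 8.82, 9.04, 4.95 and 6.41 CPM in sham, 22.3, 52.5, 20.1 and 26.8 on day 1, and 358, 269, 166 and 223 on day 7. The groups did not overlap, and the second day 1 heart stood well above the other 3 of its group. *Lox* rose by 2.06 ± 0.321 on the log2 scale on day 1 (FDR 0.000252) and by 5.12 ± 0.35 on day 7 (FDR 7.03e-08), a 34.7-fold rise. The step from day 1 to day 7 was 3.06 ± 0.31 (FDR 4.58e-06), or 8.34-fold.

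*Loxl1*, known for its part in elastic fibre upkeep, was the most abundant lysyl oxidase in sham. Its CPM were 57.2, 65.0, 58.6 and 45.3 in sham, 97.6, 130, 103 and 97.4 on day 1, and 329, 219, 230 and 251 on day 7. The ranges were separate at each step. The log2 FC was 0.92 ± 0.144 on day 1 (FDR 0.000261), 2.19 ± 0.149 on day 7 (FDR 6.78e-08) and 1.27 ± 0.144 between the days (FDR 1.18e-05). *Loxl1* was thus no DEG on day 1, although it was one on library sizes alone (1.19).

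*Loxl2* and *Loxl3* carry scavenger receptor domains that *Lox* and *Loxl1* lack. *Loxl2* CPM were 21.1, 16.4, 20.9 and 16.1 in sham, 35.9, 45.0, 30.7 and 28.3 on day 1, and 166, 116, 86.0 and 97.0 on day 7. *Loxl3* CPM were 4.33, 6.65, 5.38 and 5.21 in sham, 9.60, 14.8, 14.0 and 15.2 on day 1, and 122, 53.4, 39.9 and 55.2 on day 7. Both genes had 3 separate ranges, and day 7 replicate 1 was highest for both, most clearly for *Loxl3*. *Loxl2* rose by 0.91 ± 0.198 on day 1 (FDR 0.00239, 1.19 and a DEG on library sizes alone), by 2.64 ± 0.204 on day 7 (FDR 1.84e-07) and by 1.73 ± 0.195 between the days (FDR 1.09e-05). *Loxl3* rose by 1.31 ± 0.305 (FDR 0.00376), 3.64 ± 0.313 (FDR 4.41e-07) and 2.33 ± 0.285 (FDR 2.19e-05), and its day 7 value ran from 3.19 to 3.82 when each heart was left out. *Htra2*, which overlaps *Loxl3*, had log2 FCs of 0.26 on day 1 and -0.25 on day 7.

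*Loxl4*, another member of the scavenger receptor branch, followed another course. It had 1.51, 1.15, 0.825 and 1.05 CPM in sham, 6.39, 9.16, 5.95 and 4.04 on day 1, and 5.79, 3.05, 3.95 and 3.81 on day 7. All AMI hearts exceeded all sham hearts, and the ranges of both AMI groups overlapped. *Loxl4* rose by 2.49 ± 0.285 on day 1 (FDR 3.9e-05), a 5.63-fold rise, and by 1.88 ± 0.287 on day 7 (FDR 6.67e-05). By limma on log2(TPM + 1), whose pseudocount exceeds the sham level of the gene, these were 1.37 and 1.14. The difference between the days was -0.62 ± 0.248 (FDR 0.0543, two-sided exact permutation p = 0.0571). This difference ran from -0.64 to -0.23 over the alternatives with all hearts (adjusted p from 0.033 with DESeq2 to 0.302 with limma). It ran from -0.83 without day 7 replicate 1 (FDR 0.0171) to -0.39 without day 1 replicate 2 (FDR 0.199).

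**Figure D3:**
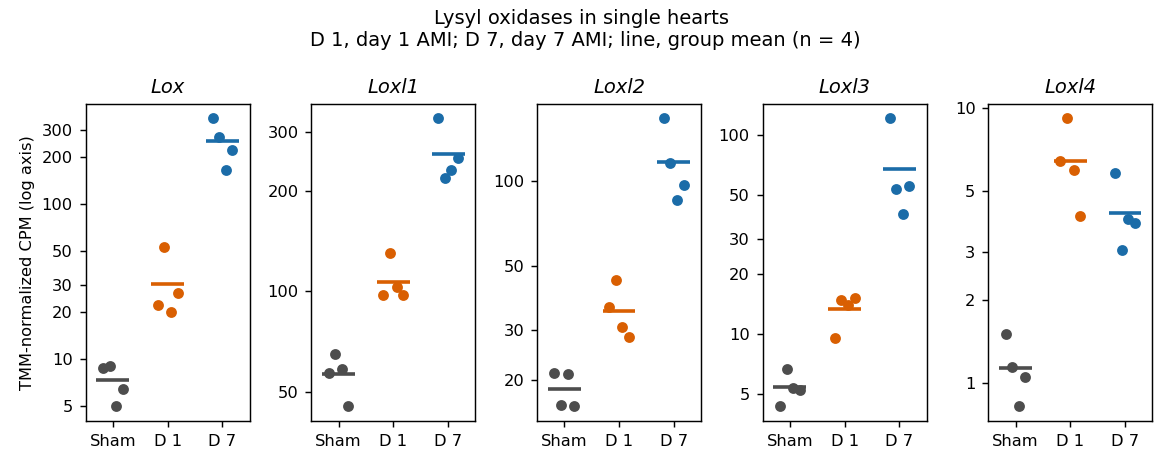
TMM-normalised CPM (log axis) of the 5 lysyl oxidases in each of the 12 hearts, by group, with group means as horizontal lines. *Lox*, *Loxl1*, *Loxl2* and *Loxl3* form 3 rising ranges, and *Loxl4* day 1 and day 7 hearts overlap.

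Of all members, 8 of 10 had day 1 hearts wholly above sham hearts and 0 wholly below, against 19.6% and 17.1% of tested genes. These 8, and the 9 and 7 given next for day 7, include *P4ha3*. It passed the filter on low counts only with day 7 hearts in the fit, the group where it was highest. On day 7, 9 of 10 lay wholly above sham and 0 wholly below, against 28.3% and 24.7%. For 7 of 10, day 7 hearts lay wholly above day 1 hearts and for 0 wholly below, against 23.5% and 20.9%. The share of the day 7 log2 FC already present on day 1 varied among the members. It was 40.2% for *Lox*, 42.1% for *Loxl1*, 34.5% for *Loxl2*, 35.9% for *Loxl3* and 37.6% for *P4ha3*. It was 102% for *Serpinh1*, 133% for *Loxl4* and 145% for *P4ha1*, and it was 28.8% for *Plod1* and -2.45% for *Plod2*. On library sizes alone the last 2 became 49.2% and 17.6%, and that of *Lox* 42.3%. Both contrasts share the sham hearts, so these percentages are descriptions.

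The make-up of the lysyl oxidase transcripts differed between groups, with more *Lox* and less *Loxl1* after AMI. TPM summed over the 5 genes was 28.6 ± 4.66 (SD, n = 4) in sham, 76.7 ± 15.6 on day 1 and 307 ± 90.1 on day 7. TPM carries no TMM correction, so levels and sums of TPM compared between groups, here and below, include a general shift. The median log2 FC of all genes on log2(TPM + 1) was 0.23 on day 1 and 0.44 on day 7, against -0.01 and 0.03 with TMM. *Lox* held 7.27% ± 1.50 of it in sham, 13.8% ± 3.75 on day 1 and 32.7% ± 3.81 on day 7, and the ranges of 5.10% to 8.41%, 10.4% to 19.0% and 28.0% to 36.9% were separate. *Loxl1* held 70.8% ± 2.27, 62.7% ± 3.25 and 44.9% ± 5.64. *Loxl2* kept a similar share (14.1%, 12.2% and 11.9%), *Loxl3* held 6.56%, 7.93% and 9.90%, and *Loxl4* held 1.31%, 3.36% and 0.683%. Shares of one total move together, so a larger share of *Lox* is in part a smaller share of the others.

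**Figure D4:**
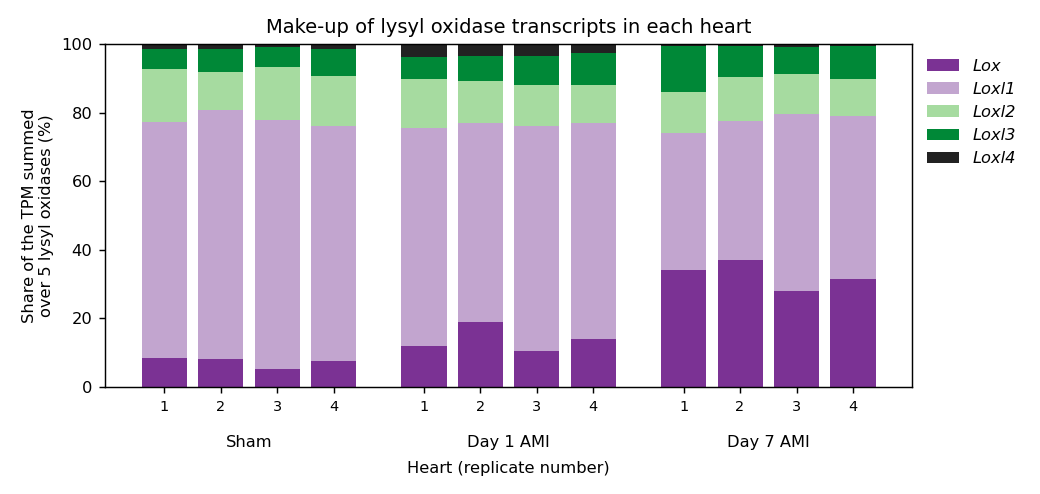
Percent of the TPM summed over the 5 lysyl oxidases held by each gene, with 1 stacked bar per heart. *Lox* grows from 7.27% in sham to 32.7% on day 7 on average, and *Loxl1* shrinks from 70.8% to 44.9%.

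Unequal changes of members were tested within hearts, as the difference of 2 genes' log2 CPM in each heart, in which a library's scaling factor cancels but for the prior count. Over 9 pairs and 3 comparisons, 19 of 27 exact permutation tests gave the smallest two-sided p that 4 against 4 hearts allow, 0.0286, adjusted to 0.0406. *Lox* gained on *Loxl1* by 1.06 on day 1 and by 2.91 on day 7 (exact p = 0.0286 each), its log2 ratio going from -2.97 ± 0.39 (SD, n = 4) in sham to -1.91 ± 0.451 and -0.06 ± 0.337. *Loxl2* moved with *Loxl1* on day 1, with a difference of -0.02 (exact p = 0.83), and gained on it by 0.42 on day 7 (exact p = 0.0286). *Loxl3* did not differ from *Loxl1* by the test on day 1 (0.37, exact p = 0.143) and gained 1.33 on day 7 (exact p = 0.0286). *Loxl4* gained on *Loxl1* by 1.47 on day 1 (exact p = 0.0286), and its log2 ratio to *Loxl1* was lower on day 7 than on day 1 by a difference of -1.85 (exact p = 0.0286). On log2(TPM + 1), the day 1 gain of *Loxl4* on *Loxl1* was 0.17 (exact permutation, adjusted p = 0.309) and the day 7 gain of *Loxl2* on *Loxl1* was 0.20 (adjusted p = 0.339).

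The same test separated the other members. *Plod2* gained on *Plod1* by 0.66 on day 7 (exact p = 0.0286), and the day 1 difference was -0.13 (exact p = 0.314). *P4ha3* gained on *P4ha1* by 5.09 on day 7 (exact p = 0.0286), and by 1.09 on day 1, which missed the threshold (exact p = 0.0571, adjusted p = 0.0771). With 1 to 3 counts of *P4ha3* per sham heart and a prior count of 2, the size of both gains depends on the prior count. *Serpinh1* gained on *P4ha1* by 0.71 on day 1 and 0.80 on day 7 (exact p = 0.0286 each), with 0.10 between the days (exact p = 0.571).

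On the TPM scale, *Serpinh1* was highest in every group, with group means of 138 in sham, 443 on day 1 and 511 on day 7. *Plod1* came next in sham with 48.1, followed by *P4ha1* (20.9) and *Loxl1* (20.3), whose hearts overlapped, and by *Plod2* with 12.7. *Loxl2* had 3.98 TPM in sham, *Lox* 2.07 and *Loxl3* 1.86, the latter pair overlapping, and *Loxl4* (0.37) and *P4ha3* (0.085) closed the order. By day 7 *Loxl1* (135), *Lox* (102) and *Plod1* (91.4) stood behind *Serpinh1* with each neighbour's hearts overlapping. *P4ha1* (44.0), *Loxl2* (36.6), *Plod2* (35.6) and *Loxl3* (32.0) then formed a run in which neighbours overlapped. *P4ha3* (6.73) had passed *Loxl4* (2.06) by day 7, which was the reverse of their order on day 1 (0.37 and 2.59).

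Most members had the same highest heart on day 7, while the order of the other hearts varied. Day 7 replicate 1 was highest of its group for 9 of 10 members, all but *Plod2*. Replicate 3 was lowest for 7 members and replicate 2 for 3. How often replicate 1 was highest over all genes was not counted. The TPM summed over 8 myofibroblast markers was also highest in day 7 replicate 1 (2639) and lowest in replicate 3 (1285), with 1686 and 1621 in replicates 2 and 4. *Postn* (day 7 mean 979 TPM) and *Acta2* (311) made up much of this sum, whose day 7 median was 1654. *Postn* is also counted among the lysyl oxidase partners and substrates below. That sum was 83.5 to 185 in sham and 185 to 336 on day 1. Of the 8 markers, 3 were higher DEGs on day 1 and 7 on day 7, against 7.79% and 15.3% of all genes. The sum of 10 general fibroblast markers was 1282 to 1669 TPM in sham, 1102 to 1565 on day 1 and 1938 to 2401 on day 7. Day 7 replicate 1 had the lowest sum of its group. Of these markers, 3 were higher DEGs and 1 lower on day 7, against 15.3% and 5.88% of all genes. Their part in the members' values was not tested.

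Other cell type markers moved with the groups as well. Over all tested genes, 7.79% were higher and 2.98% lower DEGs on day 1, and 15.3% and 5.88% on day 7. The shares that rose and fell were 22.0% and 19.9% on day 1, and 30.9% and 28.4% on day 7. No marker list was tested against these shares. The sum of 10 cardiomyocyte markers was 67553 to 79083 TPM in sham, 57400 to 64892 on day 1, when 8 of 10 fell, and 51611 to 59194 on day 7, when 6 were lower DEGs. The sum of 9 monocyte and macrophage markers was 283 to 539.9 TPM in sham, 665.9 to 972.2 on day 1, when 7 of 9 rose, and 1195 to 1945 on day 7, when 7 were higher DEGs, again highest in day 7 replicate 1. Endothelial markers summed to 395.3 to 578.3 TPM in sham, 486.8 to 536.8 on day 1, when 4 of 8 fell, and 822.8 to 993.1 on day 7, when 5 of 8 rose and 1 fell. Smooth muscle and pericyte markers summed to 247 to 293 TPM in sham, 207.9 to 244.4 on day 1 and 417.8 to 474.3 on day 7, with 3 higher and 1 lower DEGs of 7 on day 7. Of 7 neutrophil markers, 3 were higher DEGs on day 1, and 1 was higher and 2 were lower on day 7. Higher and lower DEGs on day 1 were 2 and 1 of 5 for mesothelium, 0 and 3 of 5 for erythroid cells and 1 and 1 of 5 for atrial muscle, and on day 7 they were 3 and 0, 0 and 3, and 1 and 1. None of these markers was at 0 in every heart of a group. Whether these shifts bear on the members was not tested.

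A list of 43 other genes of collagen maturation, all tested, set the members beside their pathway. On day 1, 10 of 43 were higher DEGs and 0 lower, against 7.79% and 2.98% of all genes. By FDR alone 28 rose and 4 fell, against 22.0% and 19.9%. On day 7, 20 were higher DEGs and 1 lower, against 15.3% and 5.88% of all genes, with a median log2 FC of 0.93. By FDR alone 31 rose and 4 fell, against 30.9% and 28.4%. From day 1 to day 7, 13 were higher DEGs and 1 was lower, against 8.55% and 2.69% of all genes. The falls depended on scaling, since on library sizes alone 1 gene fell on each day, while 33 rose on day 1 and 37 on day 7, with 17 and 29 higher DEGs. Of 15306 tested genes, 6289 rose on that scale on day 1 and 8237 on day 7, and 1764 and 3633 were higher DEGs.

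Of 11 lysyl oxidase substrates and partners, 11 were higher DEGs on day 7, against 15.3% of all genes, with a median of 3.79. They ran from periostin (*Postn*, 5.99 ± 0.198, FDR 1.18e-10) to the basement membrane collagen *Col4a1* (1.67, FDR 1.03e-06). Fibulin-5 (*Fbln5*), which brings lysyl oxidases to elastin, fell by 0.63 on day 1 (FDR 0.0008, not called by limma on log2(TPM + 1)) and rose by 1.96 on day 7 (FDR 2.46e-08). Fibulin-4 (*Efemp2*), which binds *Lox* protein, rose by 1.12 (FDR 0.000819) and 1.99 (FDR 2.41e-06). The procollagen C-proteinase *Bmp1*, which also activates pro-lysyl oxidase, rose by 0.55 (FDR 0.00683) and 1.80 (FDR 2.59e-07). Of 8 procollagen processing genes, 4 were higher DEGs on day 7 and 1 lower, against 15.3% and 5.88% of all genes. They ran from the N-proteinase *Adamts2* (2.76, FDR 1.15e-09) to *Tll2* (-1.32, FDR 0.0237), which was not called on library sizes alone (-0.93, FDR 0.0932).

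Other sub-lists hold genes that mostly work inside the cell. Over all tested genes, 15.3% were higher and 5.88% lower DEGs on day 7, and 30.9% rose and 28.4% fell. No sub-list was tested against these shares. Of 7 prolyl hydroxylation genes, 3 were higher DEGs on day 7, and 5 rose and 1 fell, from *P3h3* (1.84, FDR 4.41e-07) to *P3h4* (-0.61, FDR 0.000241), which was not called on library sizes alone (-0.21, FDR 0.107). The beta subunit *P4hb* rose by 0.94 on day 1 (FDR 9.48e-05) and 0.73 on day 7 (FDR 0.000167). Of 4 lysyl hydroxylation and glycosylation genes, 0 were DEGs on day 7, and 2 rose and 1 fell, from the galactosyltransferase *Colgalt1* (0.85, FDR 1.27e-05) to *Tmem38b* (-0.86, FDR 0.000136, not called by limma on log2(TPM + 1)). *Plod3*, the third lysyl hydroxylase, had risen by 0.89 on day 1 (FDR 0.000575), when its relatives *Plod1* and *Plod2* were not called, and stood at 0.85 on day 7 (FDR 0.000332). Of 8 chaperones and isomerases, 6 rose and 0 fell on day 7 and 1 was a DEG, *Fkbp10* (1.24, FDR 0.000151), and the lowest was *Hspa5* (-0.35, FDR 0.107), which was 0.05 on library sizes alone. Of 5 export genes, 2 rose and 1 fell, with the transcription factor *Creb3l1* at 1.93 (FDR 4.1e-06) and *Mia2* at -0.37 (FDR 0.0074), whose sign turned to 0.04 on library sizes alone.

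**Figure D5:**
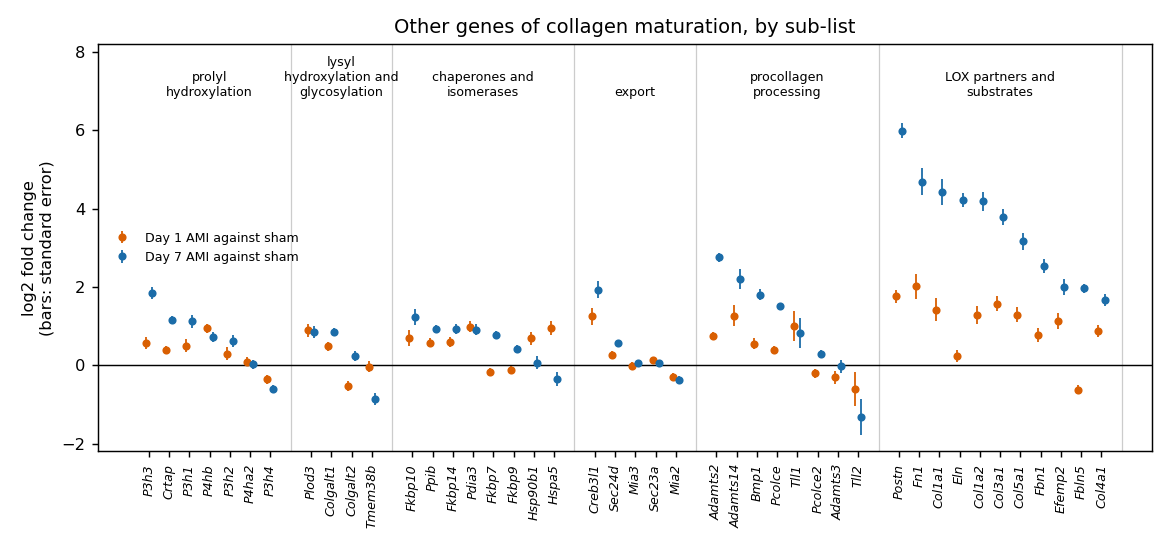
Log2 fold change against sham (vertical axis, bars are standard errors) of 43 other collagen maturation genes on day 1 AMI and day 7 AMI, by sub-list. Day 7 values of the 11 lysyl oxidase partners and substrates run from 1.67 to 5.99, above most genes of the other sub-lists.

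Genes with the profile nearest to each member were searched among 13932 genes, by the root mean square difference of log2 CPM over the 12 libraries after each gene was centred on its sham mean. For *Lox* they were *Col12a1* (0.34), *Ckap2l* (0.38) and *Kif2c* (0.42). For *P4ha3* they were *Postn* (0.34), *Ltbp2* (0.42) and *Col12a1* (0.46). *Loxl3* lay nearest to the collagen genes *Col5a2* (0.31), *Col5a1* (0.32) and *Col16a1* (0.36), and *Loxl2* to *Fbn1* (0.17), *Tgfb3* (0.20) and *Sparc* (0.20). *Loxl1* lay nearest to *Plk4* (0.15), *Tcf19* (0.19) and *Fzd2* (0.20).

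*Loxl4* lay nearest to *Cd44* (0.28), *Capg* (0.30) and *Cgref1* (0.30). *Serpinh1* lay nearest to *Sec61b* (0.21), *Rcan1* (0.22) and *Aacs* (0.22), and *P4ha1* to *Ssr1* (0.12), *Rcc1* (0.12) and *Metrnl* (0.13). *Plod1* lay nearest to *Trio* (0.07), *Fam3c* (0.07) and *Tet3* (0.08), and *Plod2* to *Itga6* (0.12), *Golim4* (0.12) and *Ctdspl* (0.13). Among the members themselves the closest pairs were *Loxl1* with *Loxl2* (0.32), *Plod1* with *P4ha1* (0.39), *Plod1* with *Plod2* (0.42) and *Lox* with *P4ha3* (0.50). Small distances are easier to reach for genes that change little, so the values do not rank members.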

How the data were processed

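RNA-seq of 12 whole mouse hearts was used, 4 per group, with groups taken from the labels. The authors trimmed reads with Cutadapt, aligned them with STAR 2.4.0j to Ensembl GRCm38 and quantified them with RSEM. The authors deposited raw counts for 53801 genes and TPM from RSEM for the same genes. Which tool made the raw counts, their strand and the handling of reads with several matches are not given in the sources used here. In all, 124 symbols stood on more than one identifier, and 0 columns were left unused.

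Counts were tested with edgeR 4.0.16 in R 4.3.3 (TMM, filterByExpr by group, quasi-likelihood, one fit of 3 groups), and p-values were adjusted over 15306 genes. Standard errors come from the F statistic. Log2 CPM used a prior count of 2. TPM served to compare levels between genes, for sums of markers and as an alternative. Pairs of members were compared by exact two-sided permutation, 4 hearts against 4, with adjustment over 27 tests. The genes named were all members, the gene with the highest and the lowest day 7 log2 FC of each pathway sub-list, *Plod3*, *P4ha2*, *P4hb*, *Bmp1*, *Efemp2* and *Fbln5* as direct relatives or partners, and the 3 nearest profiles of each member. *Htra2* was named for its exon overlap with *Loxl3*, and *Gm21451* as a possible holder of sequence shared with *Loxl2*. The members and lists were chosen with earlier results of these data known. The lists were cardiomyocyte, fibroblast, myofibroblast, endothelial, smooth muscle and pericyte, macrophage, neutrophil, mesothelial, erythroid and atrial markers, and 43 pathway genes.

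Depth was 23204551 to 32166517 counts, and counting error weighs most on the low *P4ha3* and *Loxl4*. Libraries of one group differed by a chi-square per degree of freedom of at least 9.41, so none repeated another. Alternatives were DESeq2 1.42.0, limma 3.58.1 on log2(TPM + 1) and log2(TPM + 0.1), RLE factors, library sizes alone, no filter, only the compared groups, a replicate block, no FC minimum and each heart left out. Code was tested on simulated data.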

Additional observations from a re-analysis of the deposited data

Results flagged for a closer look

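For 7 members the log2 FC against sham on day 7 differed from that on day 1 by edgeR's quasi-likelihood test of day 7 against day 1. The difference, day 7 less day 1, was 3.96 for *P4ha3*, 3.06 for *Lox*, 2.33 for *Loxl3*, 1.73 for *Loxl2*, 1.27 for *Loxl1*, 1.05 for *Plod2* and 0.26 for *Plod1*. In these 7 genes all 4 day 7 hearts lay above all 4 day 1 hearts. Over all tested genes, 24.2% rose and 22.8% fell from day 1 to day 7, and 23.5% had day 7 hearts wholly above day 1 hearts. The 7 include *P4ha3*, which passed the filter on low counts only with day 7 hearts in the fit. By Dixon's criterion for 4 samples, 1 of 30 gene and group combinations had a heart that stood apart on the CPM scale, *Serpinh1* in day 7 replicate 1 at 1037 CPM (ratio 0.859), and 0 did on the log2 CPM scale. Chance alone is expected to give about 1 in 20 such combinations.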

How the results depend on the processing

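The counts of higher DEGs among members were 5 (day 1 against sham), 8 (day 7 against sham) and 6 (day 7 against day 1). Over all tested genes, 7.79%, 15.3% and 8.55% were higher DEGs in these comparisons. The day 1 count of members was 8 by limma on log2(TPM + 0.1), where *Loxl1*, *Loxl2* and *P4ha1* also passed a FC of 2. By that fit 1739 of 15306 tested genes were higher DEGs on day 1, against 1192 in the main fit. Without a FC minimum, 8 members and 22.0% of all tested genes rose on day 1. Leaving out each heart gave member counts of 5 to 6, 6 to 8 and 5 to 6. The 6 of 8 came without day 7 replicate 1, when *Plod2* and *Serpinh1* fell short of the FC. Under the other alternatives the counts stayed within 1.5 times, and 0 members were lower DEGs in any.

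Signs turned for values that were not called. *Plod2* on day 1 was 0.32 and 0.34 by limma on log2(TPM + 1) and log2(TPM + 0.1), 0.25 on library sizes alone and -0.11 to 0.04 with each heart left out. Between the days, *P4ha1* was 0.02 by limma with either pseudocount. *Serpinh1* was 0.10 by limma with either, 0.11 on library sizes alone and -0.41 to 0.12 with each heart left out. On day 1, *P4ha3* less *P4ha1* was -0.69 on log2(TPM + 1), and *Loxl2* less *Loxl1* was -0.15 to 0.03 with each heart left out. *Serpinh1* less *P4ha1* between the days was -0.06 to 0.18. On log2(TPM + 1) the smallest adjusted p of the pair tests was 0.0514, so the 19 pair calls were lost there, 13 of them at that value and 6 above it, and with 3 hearts in a group the exact test cannot go below 0.0571.

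Scaling changed the split of all genes. On library sizes alone 1764 genes were higher DEGs and 217 lower on day 1 against sham (1192 and 456 with TMM), 3633 and 318 on day 7 (2346 and 900), and 1626 and 293 between the days (1308 and 411). With a replicate block the member counts were 5, 8 and 6, and the block changed no call of a member. Same-numbered hearts were different mice, and the correlation of their deviations ran from -0.244 to 0.229 over 12 pairs. Of these, 4 were best with their own number, among them replicate 3 in every pair of groups (0.122, 0.127 and 0.149). The main fit therefore used no pairing by number, but such weak correlations cannot exclude a batch shared by number. Among the members, depth limits *P4ha3* most, with 1 to 3 counts per sham heart.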
